A study of Mus musculus with 9 samples.

Results

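The T cell receptor is assembled from an alpha and a beta chain, whose constant parts are encoded by Trac and by either Trbc1 or Trbc2, and from the invariant CD3 gamma, delta and epsilon chains (Cd3g, Cd3d, Cd3e) and the zeta chain (Cd247). These genes were taken by symbol from the deposited table of gene expression, and all 7 were present among its 46517 genes. The values describe bulk RNA of 9 libraries, given as FPKM, which scales the sequenced fragments of a gene to its length and to all counted fragments of the library. All mice were C57BL/6 and older than 18 months.

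The samples were 3 wild-type spleens, numbered 1, 4 and 5, together with 4 spleens and 2 lymph nodes of the plckGAPDH genotype, the nodes from animals 455 and 508. In this line the promoter of Lck, a kinase gene of the T cell lineage, drives a transgene of the glycolytic enzyme Gapdh, and the labels describe its mice as developing tumours. Spleen and lymph node 508 come from the same animal, and no wild-type lymph node was analysed here. Spleens 343, 508 and 547 carry animal numbers, whereas the column of the fourth plckGAPDH spleen names no animal and is called the unnumbered spleen. Nothing in the labels says how much of each tissue was tumour. The other numbered libraries differ in the number in their titles, which is read here as separate animals, although the labels do not state it. The column of the unnumbered spleen is named rateB, and the titles of spleens 343 and 547 end in rateA. Whether the unnumbered spleen came from a further animal is not stated, and the tests below treat it as a separate animal. A p-value covers only the variation among the libraries at hand.

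The alpha and beta chains recognise antigen but have only short tails inside the cell. Signalling is carried by the CD3 and zeta chains, whose tails hold tyrosine motifs (ITAMs) that Lck phosphorylates and that then recruit the kinase Zap70. A receptor that lacks any of these chains is largely held back inside the cell, and on a mature T cell all of them are normally made together. Each beta chain uses 1 constant gene, Trbc1 or Trbc2, so a T cell population that descends from 1 cell normally carries a single choice, and the Trbc1 to Trbc2 ratio of a mixed population averages over many such choices. In bulk RNA, fewer T cells and less receptor RNA per T cell cannot be told apart.

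The estimated depth was 23900000 to 34400000 fragments per library, and ribosomal RNA of mitochondria took 23.7% to 53.7% of them. The FPKM columns summed to between 1028802 and 2667329, so a level in 1 library is not on the same footing as in another, and the scaling was varied for each comparison. Every member was at 7.19 FPKM or more in each of the 9 libraries. Among the wild-type spleens, number 5 was rich in beta-globin RNA (Hbb-bs at 33216 FPKM, with 28.13 in number 1 and 0.17 in number 4), and number 4 held 1.37 FPKM of the neutrophil gene S100a8, against 1162 in number 1. No list of lymph node markers was used, and the protocol in the labels speaks of splenocytes for all samples. The lymphoid stroma chemokine Ccl21a was at 9.53 and 0.69 FPKM in nodes 455 and 508 and at 0.08 FPKM or less in the plckGAPDH spleens, but at 0.49 to 2.32 FPKM in the wild-type spleens.

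The sequences of Trbc1 and Trbc2 are shown first, because their likeness bounds what the ratio of the 2 genes can tell. Both lie on the plus strand of chromosome 6 (GRCm38), with 6849 bases between the end of Trbc1 and the start of Trbc2. Trbc1 has its exon 1 at chr6:41538218-41538592 and Trbc2 at chr6:41546730-41547104. Of the 375 bases of exon 1, which encodes the immunoglobulin-like constant domain, 1 differed (C260A, with the base of Trbc1 first and positions counted from 1 at the first base of exon 1). The 18 bases of exon 2 differed at 3 positions and the 107 bases of exon 3 at 15. The 300 bases of each spliced transcript that end with exon 3 follow, with the bases that differ in capitals.

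Trbc1: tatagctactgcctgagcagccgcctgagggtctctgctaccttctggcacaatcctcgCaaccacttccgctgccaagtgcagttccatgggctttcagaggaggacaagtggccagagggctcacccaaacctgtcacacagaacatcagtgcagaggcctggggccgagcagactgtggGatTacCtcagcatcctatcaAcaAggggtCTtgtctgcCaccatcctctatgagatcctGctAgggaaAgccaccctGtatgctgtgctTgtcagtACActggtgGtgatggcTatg
Trbc2: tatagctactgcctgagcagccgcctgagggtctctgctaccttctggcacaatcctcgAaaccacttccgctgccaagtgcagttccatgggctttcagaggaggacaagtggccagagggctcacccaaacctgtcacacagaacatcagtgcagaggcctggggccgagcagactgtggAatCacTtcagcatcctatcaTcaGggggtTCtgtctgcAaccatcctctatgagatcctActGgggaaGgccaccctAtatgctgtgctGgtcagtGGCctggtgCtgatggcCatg

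Within exons 1 to 3 the differing bases were thus gathered towards the end. Exon 4, of 237 bases in Trbc1 and 192 in Trbc2, was not compared base by base. Of all 75-base windows, the length of 1 read, 35.1% of Trbc1 and 37.7% of Trbc2 were also found in the other gene. A fragment whose reads lie in such windows cannot be given to 1 of the genes by its sequence, and the sources used here do not say how the authors' counting shared those fragments. The Trbc1 to Trbc2 ratio and the sum of both genes below carry that uncertainty.

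The alpha chain gene Trac (chr14:54220521-54224206) was at 71.69, 126.55 and 133.32 FPKM in wild-type spleens 1, 4 and 5. In plckGAPDH spleens 343, 508 and 547 it was at 70.28, 31.61 and 28.46 FPKM, and in the unnumbered spleen at 403.41 FPKM. Lymph nodes 455 and 508 held 56.57 and 23.52 FPKM. Spleens 508 and 547 and node 508 were thus low, spleen 343 lay just under the lowest wild-type spleen, and the unnumbered spleen held 3.03 times the level of the highest wild-type spleen.

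Trbc1 was at 64.82, 82.06 and 139 FPKM in the wild-type spleens, at 32.23, 25.28 and 32.1 FPKM in plckGAPDH spleens 343, 508 and 547, and at 239.11 FPKM in the unnumbered spleen. Nodes 455 and 508 held 22.23 and 19.53 FPKM. The 3 numbered plckGAPDH spleens lay close together (29.9 ± 3.98 FPKM, SD, n = 3) and all below the wild-type spleens, while the unnumbered spleen lay above them.

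Trbc2 was at 137.09, 267.85 and 406.7 FPKM in the wild-type spleens. The plckGAPDH spleens 343, 508 and 547 held 144.71, 75.48 and 77.8 FPKM, the unnumbered spleen 356.78 FPKM, and nodes 455 and 508 98.01 and 75.84 FPKM. Trbc2 was the only member in which the unnumbered spleen did not exceed every wild-type spleen, and the only member in which spleen 343 was above the lowest wild-type spleen. By level per length, Trbc2 was the highest of the 7 genes in 8 of 9 libraries, and in the unnumbered spleen Trac was.

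The 3 CD3 genes lie together on chromosome 9, within 40056 bases from Cd3g (chr9:44969572-44980431, minus strand) over Cd3d (chr9:44981786-44987339, plus strand) to Cd3e (chr9:44998740-45009627, minus strand). Cd3g and Cd3d are transcribed away from each other from starts 1355 bases apart. The RefSeq windows (GRCm38.p6) from 250 bases before to 50 bases after the start are shown for both, in the direction of transcription. Their profiles were alike (Pearson correlation of log2(FPKM + 1) 0.948), but this was not particular to neighbours. Trbc2 and Cd3d, on different chromosomes, reached 0.982. Capitals mark the ETS core GGAA or its reverse complement TTCC, the letters that the T cell factor Ets1 and its relatives read.

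Cd3g, chr9:44980382-44980681, minus strand: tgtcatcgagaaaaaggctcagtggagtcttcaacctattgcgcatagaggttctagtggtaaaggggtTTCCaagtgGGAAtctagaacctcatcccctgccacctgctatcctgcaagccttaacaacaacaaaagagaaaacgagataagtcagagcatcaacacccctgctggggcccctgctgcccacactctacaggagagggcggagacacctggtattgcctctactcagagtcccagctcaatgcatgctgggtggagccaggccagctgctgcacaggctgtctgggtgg
Cd3d, chr9:44981536-44981835, plus strand: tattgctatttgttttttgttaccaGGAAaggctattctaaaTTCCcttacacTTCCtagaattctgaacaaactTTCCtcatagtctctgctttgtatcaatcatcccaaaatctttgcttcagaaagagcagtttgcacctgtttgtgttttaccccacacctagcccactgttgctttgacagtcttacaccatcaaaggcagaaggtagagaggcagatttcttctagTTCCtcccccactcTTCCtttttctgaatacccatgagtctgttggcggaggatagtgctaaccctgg

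The window of Cd3g held 2 ETS cores and that of Cd3d 6, on both strands together, and the windows of Cd3e and Cd247 held 5 and 2. Such a core was found in 96.0% of 32851 windows of this length, with a mean of 3.52 per window. The letters TATAAA were in none of the 4 windows and in 13.6% of all windows, and the RUNX core TGTGGT in none of the 4 and in 16.8%. An E-box (CANNTG) was in all 4 and in 72.3% of all windows, and the GATA core AGATAA was in the window of Cd3g and in 11.2%. These matches describe letters and not sites of binding, and Trac, Trbc1 and Trbc2 had no entry among the windows.

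Cd3g, the gamma chain, was the most abundant CD3 gene per length in every library. It was at 55.48, 113.43 and 118.32 FPKM in wild-type spleens 1, 4 and 5, at 50.31, 26.47 and 43.27 FPKM in plckGAPDH spleens 343, 508 and 547, and at 218.11 FPKM in the unnumbered spleen. Nodes 455 and 508 held 60.17 and 26.65 FPKM. Node 455 therefore exceeded wild-type spleen 1 in this gene, which it also did in Cd247 and in no other member.

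Cd3d, the delta chain, was at 22.97, 39.15 and 63.46 FPKM in the wild-type spleens, at 19.18, 7.19 and 12.82 FPKM in spleens 343, 508 and 547, and at 63.68 FPKM in the unnumbered spleen. Nodes 455 and 508 held 13.36 and 9.54 FPKM. Here the unnumbered spleen was level with wild-type spleen 5, and the 3 numbered plckGAPDH spleens were below all wild-type spleens.

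Cd3e, the epsilon chain that pairs with both the gamma and the delta chain, was at 27.27, 58.63 and 29.17 FPKM in the wild-type spleens. It was at 26.47, 8.12 and 13.02 FPKM in spleens 343, 508 and 547, at 79.16 FPKM in the unnumbered spleen and at 16.66 and 7.24 FPKM in nodes 455 and 508. Wild-type spleen 5, the highest wild-type spleen in 6 of the 7 genes, was not so in Cd3e. Its ratio of Cd3d to Cd3e was 2.18, against 0.668 to 1.32 in the other 8 libraries.

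Cd247 (chr1:165788681-165877277, plus strand) encodes the zeta chain, which natural killer (NK) cells also use with their Fc receptor. It was at 21.19, 39.5 and 56.87 FPKM in the wild-type spleens, at 14.61, 10.39 and 10.09 FPKM in spleens 343, 508 and 547, and at 107.51 FPKM in the unnumbered spleen. Nodes 455 and 508 held 28.69 and 8.87 FPKM. The 3 numbered plckGAPDH spleens were again below the wild-type spleens, and the unnumbered spleen held 1.89 times the highest of them.

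**Figure D1:**
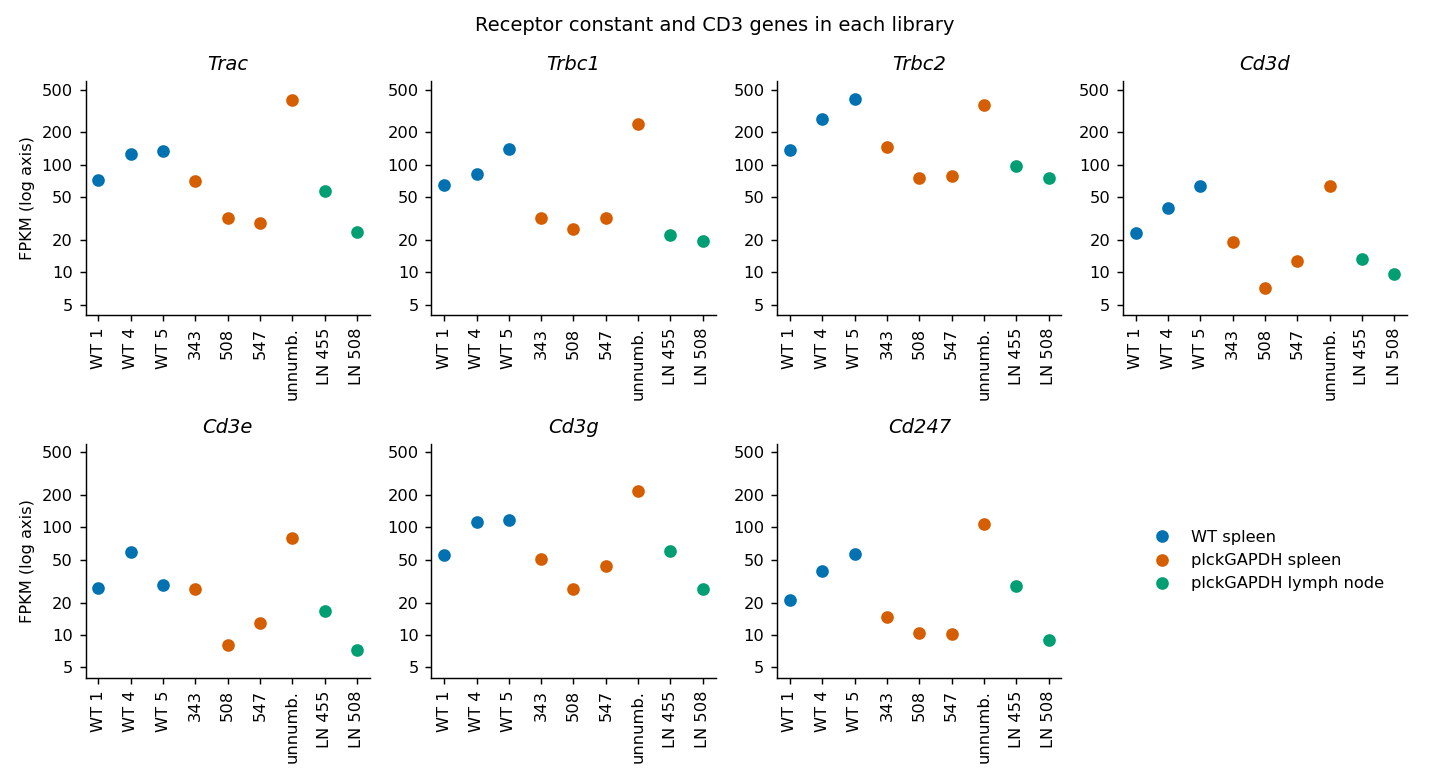
FPKM of each member (log axis) in each library, 1 point per library, coloured by group; LN is lymph node and unnumb. the unnumbered plckGAPDH spleen. Spleens 508 and 547 lie below every wild-type spleen in all 7 panels, and the unnumbered spleen is the highest library in 6 of them.

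Contrasting library profiles therefore ran through the whole complex. Spleens 508 and 547 were below every wild-type spleen in 7 of 7 members, with medians over the members of 0.265 and 0.306 times the wild-type mean, while 14.7% of the 12607 genes tested had both spleens below every wild-type spleen. Spleen 343 was below as well in 6 of 7 (median 0.525), and 7.31% of genes had all 3 numbered spleens below. The unnumbered spleen was above every wild-type spleen in 6 of 7 (median 2.28), as were 33.4% of genes. Both patterns held together in the same 6 members and in 1.06% of genes. These counts were formed after the values had been seen, and they describe the libraries. They changed with the scaling: rescaled to protein-coding genes, spleen 343 was below every wild-type spleen in 2 members and the unnumbered spleen above in 5. Wild-type spleen 1 itself had a median of 0.579 times the wild-type mean. Spleen 343 lay just under it in Trac and the 3 CD3 genes, at 0.835 (Cd3d) to 0.980 (Trac) times the lowest wild-type spleen, and further under it in Cd247 (0.689) and Trbc1 (0.497).

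None of the 7 members differed between the plckGAPDH and the wild-type spleens in limma, a linear model fitted to log2(FPKM + 1) of all 12607 genes tested, at a false discovery rate (FDR) under 0.05. At that rate 1.44% of the genes were called, 0.206% as higher and 1.23% as lower in plckGAPDH spleens. Of the members, 0 had an unadjusted p under 0.05, against 8.85% of all genes. In none of the members did the groups fail to overlap, against 3.88% of genes lower and 3.39% higher without overlap. All 7 log2 fold changes were below 0, from -1.01 (SE 0.63) for Cd3d to -0.57 (SE 0.78) for Trac, and their median was -0.80 against 0.02 over all genes. The limma FDR was 0.789 to 0.967.

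The spread within the plckGAPDH group was wide. For Trac, the 4 plckGAPDH spleens had a mean of 133 ± 181 FPKM (SD, n = 4) beside 111 ± 33.8 FPKM (SD, n = 3) for the wild-type mice, although its log2 fold change was below 0, since 1 spleen carried the mean. Cd3d had 25.7 ± 25.8 FPKM against 41.9 ± 20.4 FPKM with the same n, and Cd247 35.7 ± 48.0 against 39.2 ± 17.8 FPKM. The 95% interval of the log2 fold change reached from -2.26 to 1.13 for Trac and from -2.39 to 0.36 for Cd3d. As folds of FPKM + 1, the lower bounds of the 7 intervals were 0.191 to 0.251 and the upper bounds 1.29 to 2.18.

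Without the unnumbered spleen the log2 fold changes were -1.59 (Cd3d) to -1.21 (Cd3g), and all 7 members had an unadjusted p under 0.05, as did 8.90% of the 12303 genes tested. The limma FDR of the members was 0.197 to 0.494, and 0 of them were called, against 1.73% of genes. With wild-type spleen 1, 4 or 5 left out as well, 7, 3 and 2 members had an unadjusted p under 0.05. So did 888 of 11625, 876 of 11822 and 759 of 11797 genes tested. Again 0 members were called, against 299, 98 and 116 genes. Weighting the spleens by limma's estimate of their quality put 24.8 on wild-type spleen 1 and 0.296 to 2.04 on each of the rest. All 7 directions then turned, to 0.50 (Cd3d) to 1.13 (Trac). Under these weights 0 members were called (limma FDR 0.198 to 0.479), against 1863 of 12607 genes.

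**Figure D2:**
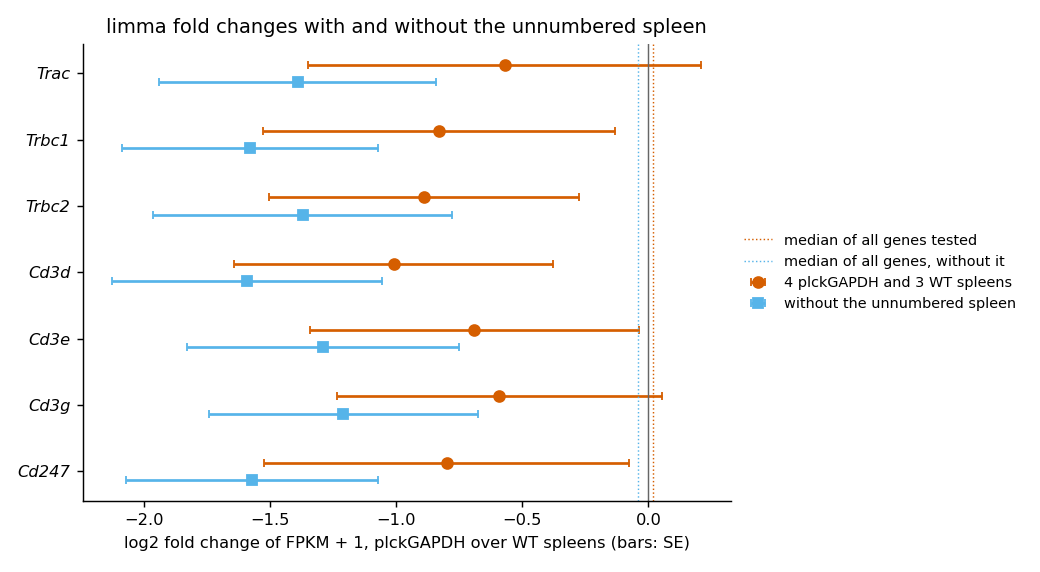
log2 fold change of FPKM + 1 (horizontal axis) of each member between plckGAPDH and wild-type spleens, with the standard error as bars; circles use all 7 spleens and squares leave out the unnumbered spleen, and dotted lines are the medians of all genes tested. The circles lie between -1.01 and -0.57 and the squares between -1.59 and -1.21, and neither set passed the test.

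Ratios within a library do not depend on how the library was scaled, and they show whether the chains kept the same proportions. The Trbc1 to Trbc2 ratio was 0.473, 0.306 and 0.342 in wild-type spleens 1, 4 and 5. It was 0.223, 0.335 and 0.413 in plckGAPDH spleens 343, 508 and 547 and 0.670 in the unnumbered spleen, where Trbc1 made up 40.1% of both genes against 23.5% to 32.1% in the wild-type spleens. The plckGAPDH spleens thus lay on both sides of the wild-type range, 343 below it and the unnumbered spleen above it. The mean log2 ratio of plckGAPDH spleens, -1.40 ± 0.66 (SD, n = 4), was close to the -1.45 ± 0.33 (SD, n = 3) of wild-type mice, a difference of 0.05 (exact two-sided permutation test over 35 assignments, p = 0.914, adjusted p over 5 ratios = 0.914). The smallest p these 35 assignments allow is 0.0286. Nodes 455 and 508 had ratios of 0.227 and 0.258, below every wild-type spleen.

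Use of V genes was read beside this ratio, since the V segment is the other choice that a beta chain makes. The most abundant Trbv gene held at most 10.9% of all Trbv FPKM in the wild-type spleens, 75.8% in the unnumbered spleen (Trbv20, at 370 FPKM), 61.2% in node 455 (Trbv2) and 42.2% in spleen 508 (Trbv19). In node 508 it held 34.1% (Trbv3), in spleen 343 19.8% (Trbv31) and in spleen 547 12.1% (Trbv13-1). The library with the largest share of 1 Trbv gene was also the library with the highest Trbc1 share, but node 455, next in that order, had a Trbc1 share of 18.5%, the lowest after the 18.2% of spleen 343. All 14 Trbj genes, whose cluster would show which constant gene a chain uses, were listed at 0 in every library. They are 46 to 54 bases long, and of 1824 genes with 1 transcript under 90 bases 0 had a value above 0, so these zeros do not measure the J genes.

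The ratio of Trac to the sum of Trbc1 and Trbc2 was 0.355, 0.362 and 0.244 in the wild-type spleens, 0.397, 0.314 and 0.259 in spleens 343, 508 and 547, and 0.677 in the unnumbered spleen. Nodes 455 and 508 had 0.470 and 0.247. The unnumbered spleen and node 455 stood highest, and the other 7 libraries lay within 0.244 to 0.397. The difference in mean log2 ratio between plckGAPDH and wild-type spleens was 0.29 (exact permutation test, p = 0.571, adjusted p = 0.914). It was 0.01 without the unnumbered spleen (exact permutation p = 1.0) and 0.10 without wild-type spleen 5. In the unnumbered spleen Trac was thus high also relative to the beta chain constant genes.

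The ratio of Cd3d to Cd3g, the neighbours with opposite directions of transcription, was 0.414, 0.345 and 0.536 in the wild-type spleens. It was 0.381, 0.272, 0.296 and 0.292 in spleens 343, 508, 547 and the unnumbered spleen, and 0.222 and 0.358 in nodes 455 and 508. Of the 4 plckGAPDH spleens, 3 lay below every wild-type spleen, and 343 lay within their range. The difference in mean log2 ratio was -0.47, with an exact permutation p of 0.0857 and an adjusted p of 0.429, so it did not pass. The Cd247 to Cd3e ratio (difference -0.12, exact permutation p = 0.857, adjusted p = 0.914) and the Trac to Cd3e ratio (0.15, exact permutation p = 0.714, adjusted p = 0.914) differed by less than the spread between spleens. Wild-type spleen 5 had the highest Cd247 to Cd3e ratio of all libraries, 1.95 against 0.552 to 1.72.

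**Figure D3:**
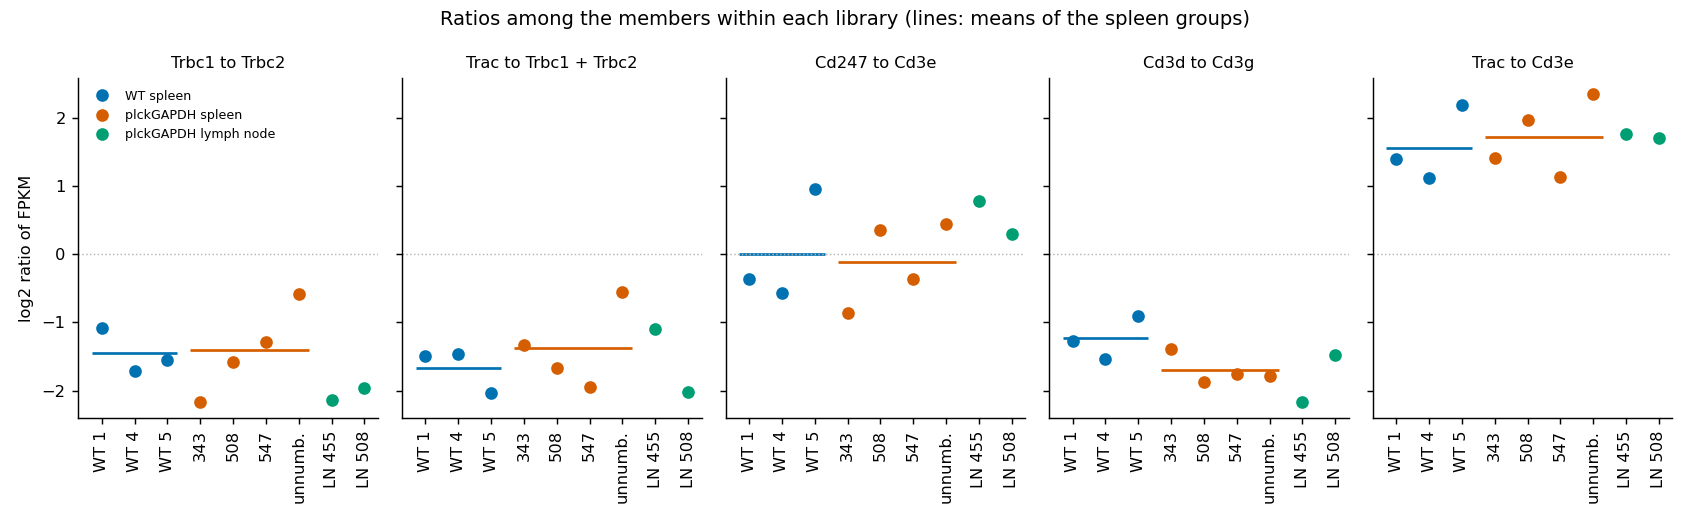
log2 ratio of FPKM within each library for 5 ratios among the members, 1 point per library, with lines at the means of the wild-type and plckGAPDH spleens. The unnumbered spleen is the highest point for Trbc1 to Trbc2, Trac to the Trbc sum and Trac to Cd3e, and the means of the spleen groups differ by at most 0.47.

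The lymph nodes were compared with the plckGAPDH spleens in a fit of all 9 libraries over 13682 genes. None of the 7 members was called by limma, and 0 had an unadjusted p under 0.05, while 0.0146% of genes were called and 11.3% had an unadjusted p under 0.05. The log2 fold changes were -1.23 (SE 0.78, Trbc1) to -0.33 (SE 0.87, Cd247), with a median of -0.67, and the median of all genes was itself -0.59. Trbc1 was the only member without overlap, with both nodes below all 4 spleens, as were 30.0% of genes. With median-of-ratios scaling, which brought the median of all genes to -0.01, Trbc2, Cd3d, Cd3g and Cd247 were above 0 and the other 3 below. All 20 genes that relay the signal of the receptor also had log2 fold changes below 0 in the nodes, with a median of -0.83, and 0 were called. Most genes did so, since 12187 of the 13682 tested were below 0.

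Animal 508 gave both organs. In its lymph node the members stood at 0.744 (Trac) to 1.33 (Cd3d) times their level in its spleen. Cd3g was nearly level, at 1.01 times, and so was Trbc2, with 75.84 FPKM in the node and 75.48 in the spleen. All 7 members in node 508 were among the 2 lowest of the 9 libraries in FPKM as given. These readings depended on the scaling. Rescaled to protein-coding genes, no member was lower in node 508 than in spleen 508 or 547. Trac was then at 32.1 in both libraries of animal 508. Trbc2 was at 104 in node 508, against 76.6 and 51.7 in spleens 508 and 547, and Cd3g at 36.4 against 26.9 and 28.7. Node 455 was higher than node 508 in all 7 under both scalings.

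Other T cell genes were set beside the members. Among 12 coreceptors and accessory molecules, 0 were called in the spleens, 9 had log2 fold changes below 0, and the median was -0.57. Thy1, a surface marker of mouse T cells, was the only one of them without overlap between the genotypes. It was at 28.35, 46.67 and 53.9 FPKM in the wild-type spleens, at 20.7, 0.82 and 21.71 FPKM in spleens 343, 508 and 547, and at 14.72 FPKM in the unnumbered spleen, and its log2 fold change was -1.96 (SE 0.76, limma FDR 0.412). Unlike the members, it was thus not raised in the unnumbered spleen. Cd4, the coreceptor of helper T cells, was at 82.87 FPKM in the unnumbered spleen against 21.07 to 35.32 FPKM in the wild-type spleens, and Cd8a, that of cytotoxic T cells, at 17.15 against 9 to 32.72 FPKM. The Cd4 to Cd8a ratio was 0.994 to 2.34 in the wild-type spleens, 4.83 in the unnumbered spleen, 26.5 in spleen 508, 21.0 in node 508, 5.13 in node 455, 1.84 in spleen 343 and 0.214 in spleen 547.

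The 7 members were also set against 6 other genes of T cells, the surface molecules Cd2, Cd5, Cd6 and Thy1 and the transcription factors Bcl11b and Tcf7. The geometric mean of the members was 1.90, 3.42 and 2.62 times that of these 6 in wild-type spleens 1, 4 and 5. It was 2.30, 4.27 and 2.63 times in spleens 343, 508 and 547, 5.25 times in the unnumbered spleen, and 4.75 and 4.06 times in nodes 455 and 508. The unnumbered spleen, spleen 508 and both nodes were above every wild-type spleen in this measure, although 3 of these 4 libraries had low member levels. Divided by the 6 genes, the members' log2 differences between the genotypes were 0.13 (Cd3d) to 0.62 (Trac), all above 0, with exact permutation p of 0.200 to 0.686. This measure was added after the data had been seen, and it depended on the genes chosen. Against all 12 coreceptors and accessory molecules the unnumbered spleen stood at 4.52 times, within the 2.78 to 4.98 of the wild-type spleens. Against the 11 transcription factors of the T lineage it stood at 7.64 times (wild-type spleens 2.87 to 5.41), and against the 20 genes that relay the receptor's signal at 7.63 times (2.63 to 4.13). Spleen 508 and nodes 455 and 508 were within the wild-type range against the coreceptors, at 3.98, 3.12 and 4.12 times. They were also within it against the transcription factors, at 3.43 to 5.28 times. Against the relay genes spleen 508 was within the range at 4.08 times. Nodes 455 and 508 were above it there, at 4.47 and 4.91 times. With the coreceptors as the base, the genotype differences were -0.40 (Cd3d) to 0.09 (Trac), with 5 of 7 below 0.

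**Figure D4:**
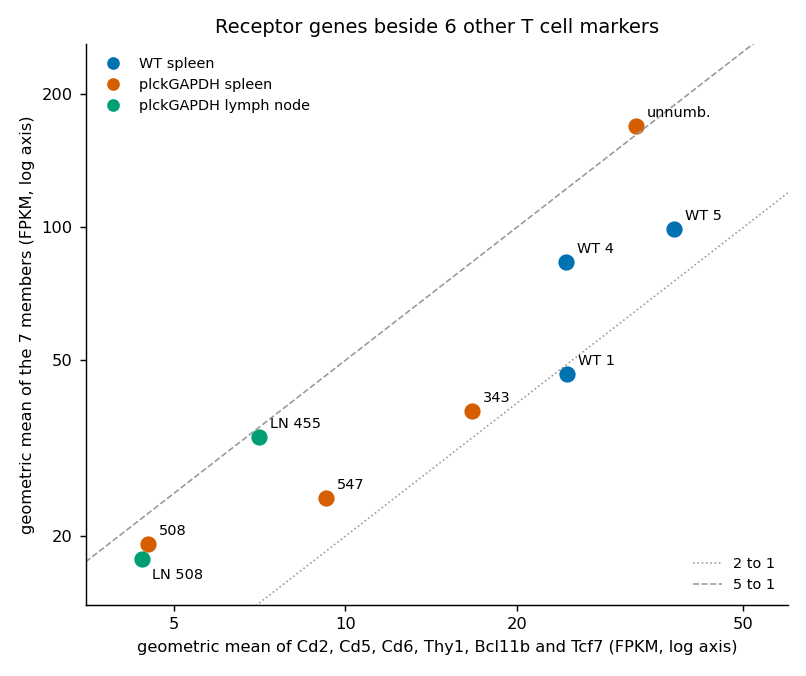
Geometric mean FPKM of the 7 members against that of Cd2, Cd5, Cd6, Thy1, Bcl11b and Tcf7 (both log axes), 1 point per library; the dotted and dashed lines mark 2 to 1 and 5 to 1. Spleens 508 and 547 and both lymph nodes are low on both axes, and the unnumbered spleen stands at 5.25 to 1, against 1.90 to 3.42 to 1 in the wild-type spleens.

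Of 20 genes that relay the signal of the receptor, 0 were called and 19 had log2 fold changes below 0, with a median of -0.81 beside the -0.80 of the members. Txk, a kinase of the Tec family, had the smallest p (log2 fold change -1.86, SE 0.45, limma FDR 0.0804), and its groups did not overlap. The adaptor Fyb and the kinases Lck and Fyn were the most abundant. Lck was at 50.94, 80.73 and 85.84 FPKM in the wild-type spleens, at 30.49, 12.42 and 37.43 FPKM in spleens 343, 508 and 547 and at 123.82 FPKM in the unnumbered spleen. Its log2 fold change was -0.93 (SE 0.63, limma FDR 0.826). As in 6 of the members, the 3 numbered plckGAPDH spleens were below and the unnumbered spleen was above every wild-type spleen.

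Among 13 other genes that regulate the signal, 0 were called and 9 had log2 fold changes below 0, with a median of -0.47. The most abundant were the phosphatase Ptprc (CD45) and Laptm5, a lysosomal protein that promotes breakdown of receptor chains, with log2 fold changes of -0.74 and 0.06. All 11 transcription factors of the T lineage had log2 fold changes below 0, with a median of -0.42, and 0 were called. Lef1 had the smallest p among them (-1.77, SE 0.63, limma FDR 0.336).

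Of 10 gene symbols listed for the other receptor of T cells, the gamma delta receptor, and for genes linked to it, 7 were in the table and 4 were tested. These 4 include the kinase gene Blk, which is not a chain of the receptor (log2 fold change -0.06, SE 0.61). All 4 had log2 fold changes below 0 between the spleens, with a median of -1.28, and 0 were called. The delta constant gene Trdc was at 0.98, 0.40 and 2.70 FPKM in the wild-type spleens and at 0.02 to 0.11 FPKM in all 6 plckGAPDH libraries, and too few spleens reached 1 FPKM for a test. The gamma constant gene Tcrg-C1 was at 2.49, 2.08 and 5.57 FPKM in the wild-type spleens and at 0.11 to 0.98 FPKM in the plckGAPDH spleens. Its groups did not overlap, and its log2 fold change was -1.55 (SE 0.36, limma FDR 0.0648). Another gamma constant gene, Tcrg-C2, was at 4.68, 18.52 and 6.4 FPKM in the wild-type spleens and at 7.02, 0.17, 0.97 and 15.59 FPKM in spleens 343, 508, 547 and the unnumbered spleen, so its groups overlapped. Ptcra, the partner of the beta chain in thymocytes, and the recombinase genes Rag1 and Rag2 were at 0.21 FPKM or less in all 9 libraries.

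Other cells can bear on members shared with them or on the scaling. All 10 NK cell markers had log2 fold changes below 0, and the groups did not overlap in 4 of them. Gzma, a protease of cytotoxic granules, and the receptor gene Klrd1 were called as lower in plckGAPDH spleens, Gzma with a log2 fold change of -3.04 and an SE of 0.65 (limma FDR 0.0404). Their summed level was 149 to 337 FPKM in wild-type spleens, 14.8 to 188 FPKM in plckGAPDH spleens and 13.2 to 75.9 FPKM in the nodes. The NK receptor gene Ncr1 was at 10.9, 1.01 and 17.96 FPKM in the wild-type spleens and at 0.04 to 0.93 FPKM in the plckGAPDH libraries. The unnumbered spleen, with 107.51 FPKM of Cd247, held 0.93 FPKM of Ncr1. Its summed level of the 10 NK markers was nevertheless 188 FPKM, the highest of the plckGAPDH spleens and above the 149 FPKM of wild-type spleen 1. Wild-type spleen 4, with 1.01 FPKM of Ncr1, had a sum of 233 FPKM, so Ncr1 did not follow the whole list. The part of NK cells in the levels of Cd247 was not tested.

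Of 10 B cell markers, 8 had log2 fold changes below 0, and the receptor genes Cr2 and Fcer2a were called as lower in plckGAPDH spleens, Cr2 with a log2 fold change of -5.44 and an SE of 0.75 (limma FDR 0.00169). Their sum was 505 to 2178 FPKM in the wild-type and 669 to 1426 FPKM in the plckGAPDH spleens. The sum of 8 plasma cell markers was 231 to 351 FPKM in the wild-type spleens, 83.9 to 4569 FPKM in the plckGAPDH spleens and 2430 to 2670 FPKM in the nodes. The 3 libraries richest in plasma cell markers, spleen 508 and both nodes, were among the 4 with the lowest summed levels of the members. The part of plasma cell RNA in the levels of the members was not tested. With FPKM rescaled to protein-coding genes, spleens 508 and 547 were below every wild-type spleen in 7 of 7 members, spleen 343 in 2 and the unnumbered spleen above in 5. The share of all genes with these patterns after rescaling was not computed, so these counts only describe the libraries.

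**Figure D5:**
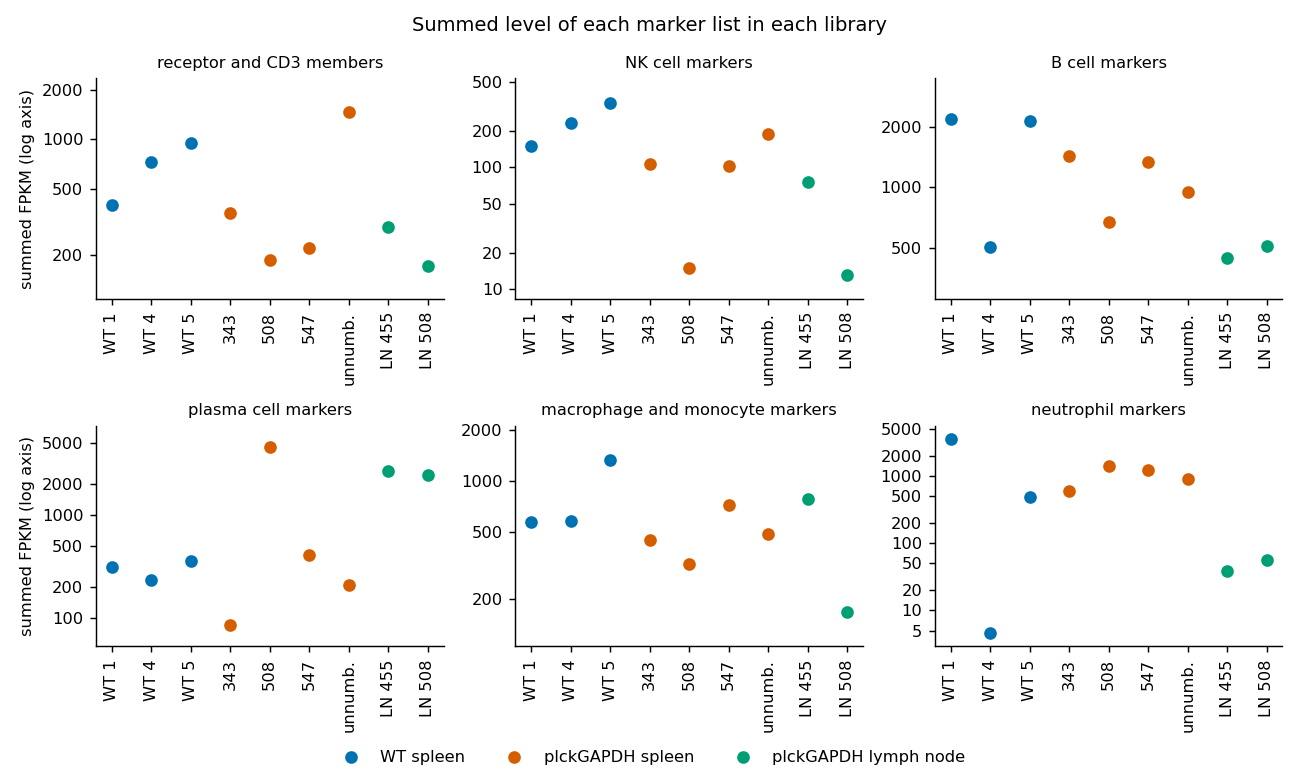
Summed FPKM (log axes) of the members and of 5 marker lists in each library, 1 point per library. The members sum to 401 to 947 FPKM in the wild-type spleens, 1468 FPKM in the unnumbered spleen and 171 to 358 FPKM in the other 5 plckGAPDH libraries, while the plasma cell markers are highest in spleen 508 and both lymph nodes.

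The members varied together over the 9 libraries. The Pearson correlation of log2(FPKM + 1) was 0.86 to 0.98 over the 21 pairs of members, and 0.77 to 0.98 without the unnumbered spleen. These values describe 9 points that share the scaling of their library, and 2 of the points share an animal. Outside the members and the receptor V, D and J genes, the 10 genes with the highest mean correlation with the members, out of 12766 ranked, reached 0.918 to 0.937, beside a median of 0.35 over the ranked genes. They were Fyb, Tnfaip8l1, Skap1, Ighv1-77, Ehd3, Ckb, Sla2, Atp10a, Hpcal1 and Abtb2. Fyb and Skap1 encode adaptors that bind each other below the T cell receptor, and Sla2 encodes an adaptor that dampens receptor signalling. Skap1 was at 26.28, 32.91 and 56.53 FPKM in the wild-type spleens and at 18.36, 6.61, 7.72 and 54.19 FPKM in spleens 343, 508, 547 and the unnumbered spleen. Without the unnumbered spleen, only Skap1 of these 10 stayed among the first 10.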

How the data were processed

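RNA of 9 samples was measured by sequencing of libraries from 500 ng of total RNA with a stranded kit and 2 reads of 75 bases per fragment, per the labels' protocols. The authors deposited FPKM with 2 decimals for each library, and those values were not rescaled between libraries. The submitters' processing notes name the build mm10 and, with no order, Bowtie2 2.2.6, RSEM, STAR 2.4.0a, Subread 1.5.0-p3 and featureCounts. The sources used here do not say which of them made the FPKM, with which annotation, or how reads shared between genes were treated. Groups follow the sample titles and genotypes. The unnumbered spleen's column matches the spleen titles of plckGAPDH mice but no single one of them, and the spleen titled 331 was matched to no column.

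Depth was estimated from low FPKM of genes with 1 transcript, of which 84.7% to 88.5% lay at whole fragments (tolerance 0.1), against 31.3% to 35.6% by chance. Trbc2 rested on an estimated 953 (spleen 508) to 5317 fragments (wild-type spleen 5). The genotypes were tested on log2(FPKM + 1) of the 7 spleens by limma 3.58.1 (R 4.3.3), with an intensity trend, for genes at 1 FPKM in 3 spleens. Nodes were compared in a fit of 3 groups over 9 samples, for genes at 1 FPKM in 2 samples. This scale understates changes of low genes. P-values were adjusted by Benjamini-Hochberg over all genes tested and called at an FDR under 0.05. Ratios were tested by exact two-sided permutation, adjusted over 5 ratios. Scripts were checked on artificial data with known answers.

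The members and lists were chosen with earlier results of these data known. From each list the text names the genes with the smallest p in each direction and those with the highest mean, and from all genes the 10 with the highest mean correlation with the members; Cd4, Cd8a, Cd2, Trdc, Tcrg-C2, Ncr1, Klrd1, Fcer2a, Skap1, Ccl21a and the T cell genes of animal 508 and the unnumbered spleen in the closing section were named after their values were seen. Alternatives were other pseudocounts, filters, scalings, weights and left-out libraries. Of 46517 gene identifiers, 46005 matched GENCODE M21. No amino acid sequence was used here. Sequences of Trbc1 and Trbc2 come from GENCODE M21 (GRCm38) and promoter windows from RefSeq (GRCm38.p6).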

Additional observations from a re-analysis of the deposited data

Results flagged for a closer look

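Among the 4 plckGAPDH spleens, the unnumbered spleen stood far from the other 3 in 4 members. The gap between its level and the next spleen took 0.888 of the range of the group for Trac, 0.967 for Trbc1, 0.876 for Cd3g and 0.954 for Cd247, above the critical value that Dixon's criterion sets for 4 samples. Chance alone would mark about 1 in 20 groups if the values were normally distributed, and the 4 genes vary together, so these are not separate events. The criterion was applied to FPKM and not to the log2 scale of the fits, so the marks hold for that scale only. For Trbc2, Cd3d and Cd3e the gap took 0.754, 0.788 and 0.742 of the range. None of the 5 ratios among the members reached the critical value, the largest gaps being 0.775 (Cd3d to Cd3g, where spleen 343 was the far one) and 0.669 (Trac to Trbc1 plus Trbc2, where the unnumbered spleen was). In units of FPKM, the unnumbered spleen held 9.28 times the mean of the other 3 spleens for Trac, 9.19 times for Cd247, 8.01 times for Trbc1 and 5.45 times for Cd3g. The criterion was not applied to the groups of wild-type spleens and of lymph nodes, so it does not judge the spread within them.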

How the results depend on the processing

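No member was called in either comparison under any alternative with a limma fit (18 for the spleens, 11 for the nodes), where the lowest FDR of any member was 0.157 and 0.197. Directions were less stable. With sample quality weights the spleen log2 fold changes became 1.13 for Trac, 0.62 for Trbc1, 0.58 for Trbc2, 0.50 for Cd3d, 0.58 for Cd3e, 0.94 for Cd3g and 0.98 for Cd247. Divided by 6 other T cell markers they became 0.62, 0.35, 0.31, 0.13, 0.48, 0.60 and 0.36 in the same order. The whole lists as the base, also added after seeing the data, turned fewer. Divided by the coreceptors, Trac became 0.09 and Cd3g 0.07, divided by the T lineage factors Trac became 0.20, Cd3e 0.05 and Cd3g 0.17, and divided by the signal relay genes Trac became 0.31, Trbc1 0.04, Cd3e 0.17, Cd3g 0.29 and Cd247 0.05, while the others stayed at or below 0. Without wild-type spleens 4 and 5 Cd3g became 0.11. The cause was not tested. In 16 of the 18 limma alternatives for the spleens all 7 stayed below 0, and leaving out 1 spleen gave -1.39 to -0.14 for Trac and -1.59 to -0.59 for Cd3d.

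For the nodes, median-of-ratios scaling gave 0.15 for Trbc2, 0.05 for Cd3d, 0.19 for Cd3g and 0.39 for Cd247, and rescaling to protein-coding genes, added after seeing the data, gave 0.19 for Cd247; these scalings moved the median of all genes from -0.59 to -0.01 and -0.18. Leaving out 1 library gave -1.14 to 0.05 for Cd3g and -1.12 to 0.47 for Cd247, turned by leaving out the unnumbered spleen or node 508. For the ratios, leaving out 1 spleen gave -0.23 to 0.30 for Trbc1 to Trbc2, -0.41 to 0.36 for Cd247 to Cd3e and -0.08 to 0.46 for Trac to Cd3e. It gave 0.01 to 0.48 for Trac to the Trbc sum, lowest without the unnumbered spleen, and -0.62 to -0.30 for Cd3d to Cd3g.

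The 181 genes called between the spleens became 74 without a filter and 1863 with quality weights, of which 891 were higher against 26 of 181. They became 110, 90 and 72 when wild-type spleen 1, 4 or 5 was left out, and 12 when 4 and 5 were. Without the unnumbered spleen and wild-type spleen 1, 4 or 5 they were 299, 98 and 116. The 2 genes called in the nodes became 0 to 28 when 1 library was left out and 5 without a filter or with the other pseudocount. A left-out node leaves 1 node, which is assumed to vary like the other groups. The comparison of J gene clusters was not run, since all J genes were listed at 0, nor the shared block of animal 508, whose correlation could not be estimated. No paired analysis was possible because the groups share only the number 508.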

Other observations

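Genes of signalling chains that pair with other receptors were measured in the same libraries. Of 5 such partner chains, Fcer1g, Tyrobp, Cd79a, Cd79b and Hcst, all had log2 fold changes below 0 between the spleens, with a median of -0.86, and 0 were called. Fcer1g, the gamma chain of Fc receptors that can stand in for the zeta chain, was at 64.11, 115.11 and 131.8 FPKM in wild-type spleens 1, 4 and 5. It was at 22.07, 15.02, 63.91 and 43.62 FPKM in spleens 343, 508, 547 and the unnumbered spleen, and at 51.51 and 5.1 FPKM in nodes 455 and 508. Its groups did not overlap between the genotypes (log2 fold change -1.64, SE 0.53, limma FDR 0.260), and the unnumbered spleen, which was high in Cd247, was not high in Fcer1g.

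In spleen 508 and lymph node 508 some T cell genes other than the members were at 1.5 FPKM or less and most were not. That level was not fixed before the data were seen, and it equals the Thy1 value of node 508. The share of all genes at or under it was not computed, and other libraries were not counted. The counts therefore only describe these libraries. At or under that level in both libraries were 3 of 12 coreceptors and accessory molecules (Cd8a, Cd8b1 and Thy1), 2 of 11 transcription factors (Bcl11b and Gata3) and 3 of 20 genes that relay the signal (Txk, Themis and Trat1). Cd2, by contrast, was at 48.64 and 36.22 FPKM in the spleen and the node. Trac was at 31.61 and 23.52 FPKM and Cd28 at 22.54 and 13.6 FPKM in the spleen and the node, beside 0.82 and 1.5 FPKM of Thy1, 0.62 and 0.80 FPKM of Bcl11b and 0.48 and 0.43 FPKM of Cd8a. In the wild-type spleens these 3 genes were at 28.35 to 53.9, 7.29 to 11.07 and 9 to 32.72 FPKM. The most abundant Trav gene was Trav21-dv12 in both libraries of this animal, with 60.3% of Trav FPKM in the spleen and 45.1% in the node. The most abundant Trbv genes were Trbv19 in the spleen and Trbv3 in the node.

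The unnumbered spleen combined the highest level of 6 members with the highest levels of Icos (82.59 FPKM) and Pdcd1 (96.25 FPKM), receptors of activated T cells. In the other 8 libraries these 2 genes were at 0.74 to 21.54 and 1.64 to 28 FPKM. Neither passed the test between the genotypes. Both were picked after their values were seen, from the list of 12 coreceptors and accessory molecules. Thy1, from the same list, was below every wild-type spleen in the unnumbered spleen. Of all genes tested between the spleens, 33.4% were above every wild-type spleen in this library.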
